A study of Mus musculus with 12 samples.

Results

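The 8 genes described here are those of the core binding factor, of its close relatives and of the fusion partner in inv(16) acute myeloid leukaemia. They are Cbfb, Runx1, Runx2, Runx3, Myh11, Runx1t1, Cbfa2t2 and Cbfa2t3, chosen by gene symbol among 24310 features of 12 RNA-seq libraries. The core binding factor is a heterodimer of a DNA-binding alpha subunit, Runx1, Runx2 or Runx3, and the shared beta subunit Cbfb, which does not bind DNA itself but strengthens the binding of its partner and shields it from degradation. Runx1 with Cbfb is required for blood stem cells to arise and later for myeloid, lymphoid and platelet development. In inv(16) leukaemia the first part of CBFB is joined to the tail of MYH11, the heavy chain of smooth muscle myosin, and the product holds RUNX1 and interferes with its work at target genes. The other core binding factor leukaemia joins RUNX1 to RUNX1T1, a corepressor of the MTG family, to which Cbfa2t2 and Cbfa2t3 also belong.

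The libraries came from CMM cells, a GFP-marked transplantable mouse leukaemia grown in C57BL/6 mice, whose spleens were enriched for c-Kit positive cells 1 day after the last of 3 injections. All groups share the leukaemia, the host strain, the intravenous route and the c-Kit enrichment, and the series text adds a sort for GFP. By their labels, 4 libraries are from mice given PBS, 4 from mice given CpG-scrODN, a TLR9 ligand joined to a scrambled decoy, and 4 from mice given CpG-STAT3dODN, the ligand joined to a decoy that STAT3 binds. The headers inside the files contradict the labels in all 12 libraries: those labelled PBS are headed DEC, those labelled CpG-scrODN are headed PBS, and those labelled CpG-STAT3dODN are headed SCR. Groups are therefore named by their labels throughout, and a difference between them is not credited to either agent. The sources do not give the age of the mice, whether a library is 1 mouse, or how the fusion is encoded in CMM cells. The widely used mouse knock-in of the fusion carries human MYH11 sequence behind the mouse Cbfb gene. Values per gene cannot separate reads of a fusion from reads of Cbfb or Myh11.

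In 3 of the 5 promoter windows of the Runx genes, 1 in each gene, the same stretch of sequence is found, and it is shown because it holds the site that the core binding factor itself binds. Windows of 300 bases, from 250 before to 50 after a start site, came from RefSeq (GRCm38.p6), in which 6 of the 8 genes had 9 windows and Myh11 and Runx1t1 had none. The 30 bases around the stretch read 5′ to 3′ on the strand of each gene, with the RUNX core AACCACA in capitals:
Runx1: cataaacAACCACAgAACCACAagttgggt
Runx2: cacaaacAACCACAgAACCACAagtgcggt
Runx3: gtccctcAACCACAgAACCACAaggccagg

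The Runx1 stretch lies at chr16:92826025-92826054 on the minus strand, and its shared part begins at base 27 of the transcript. The Runx2 stretch lies at chr17:44814583-44814612 on the minus strand, and its shared part begins at base 22 of the transcript, in a window that holds 3 cores in all. The Runx3 stretch lies at chr4:135120503-135120532 on the plus strand, and its shared part begins upstream of the transcript, at position -136 from its start. The core AACCACA, searched on both strands, occurred in 1731 of 32851 windows (5.27%). The 18 bases common to the 3 genes, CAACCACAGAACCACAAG, occurred in 4 windows (0.0122%), the fourth being that of Gm16225, which overlaps the Runx3 window on the opposite strand. The paired STAT half-sites TTCNNNGAA occurred in 8.30% of all windows and in 0 of the 9 windows of these genes. These are matches of letters in a window and say nothing of binding in CMM cells.

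Expression was read as RPKM, a read density that corrects for transcript length and for sequencing depth. Estimated depth was 31440000 to 36130000 reads per library, so that an RPKM of 1 stood for about 31.4 reads per kilobase at the lowest depth. Strand use in counting is not given in the sources used here. Opposite-strand genes overlap 0.881% of the exon bases of Runx1 (Gm26626), 5.87% of those of Runx2 (Runx2os1) and 3.52% of those of Cbfa2t3 (Gm10612). Replicate 4 labelled PBS and replicate 4 labelled CpG-STAT3dODN stood apart, with Fos, an immediate-early transcription factor, at 12.9 and 5.91 RPKM against 486 to 1156 in the other 10 libraries. Kit, by which the cells were enriched, was found in every library, at 10.5 to 51.1 RPKM. The summed RPKM of 16 B-cell markers, of which 15 had a mean of at least 1 and none was at 0 throughout, ran from 225 to 834 under the label PBS, from 12.9 to 33.8 under CpG-scrODN and from 30.7 to 134 under CpG-STAT3dODN. In such bulk samples, fewer cells of a type and less RNA per cell cannot be told apart.

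Over the 12 libraries the 8 genes fell in a steep order of level. Mean RPKM, a value per transcript length, was 39.4 for Cbfb, 28.7 for Runx1, 10.8 for Cbfa2t3, 5.74 for Runx3, 3.95 for Runx1t1, 3.37 for Cbfa2t2, 2.90 for Runx2 and 0.527 for Myh11. Cbfb exceeded Runx1, and Runx1 exceeded Cbfa2t3, in 12 of 12 libraries. Cbfa2t3 exceeded Runx3, and Runx3 exceeded Runx1t1, in 11 of 12. The lower neighbours were not separated beyond their spread, since Runx1t1 exceeded Cbfa2t2 in 9 and Cbfa2t2 exceeded Runx2 in 8 of 12 libraries. Runx2 exceeded Myh11 in 12 of 12.

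**Figure D1:**
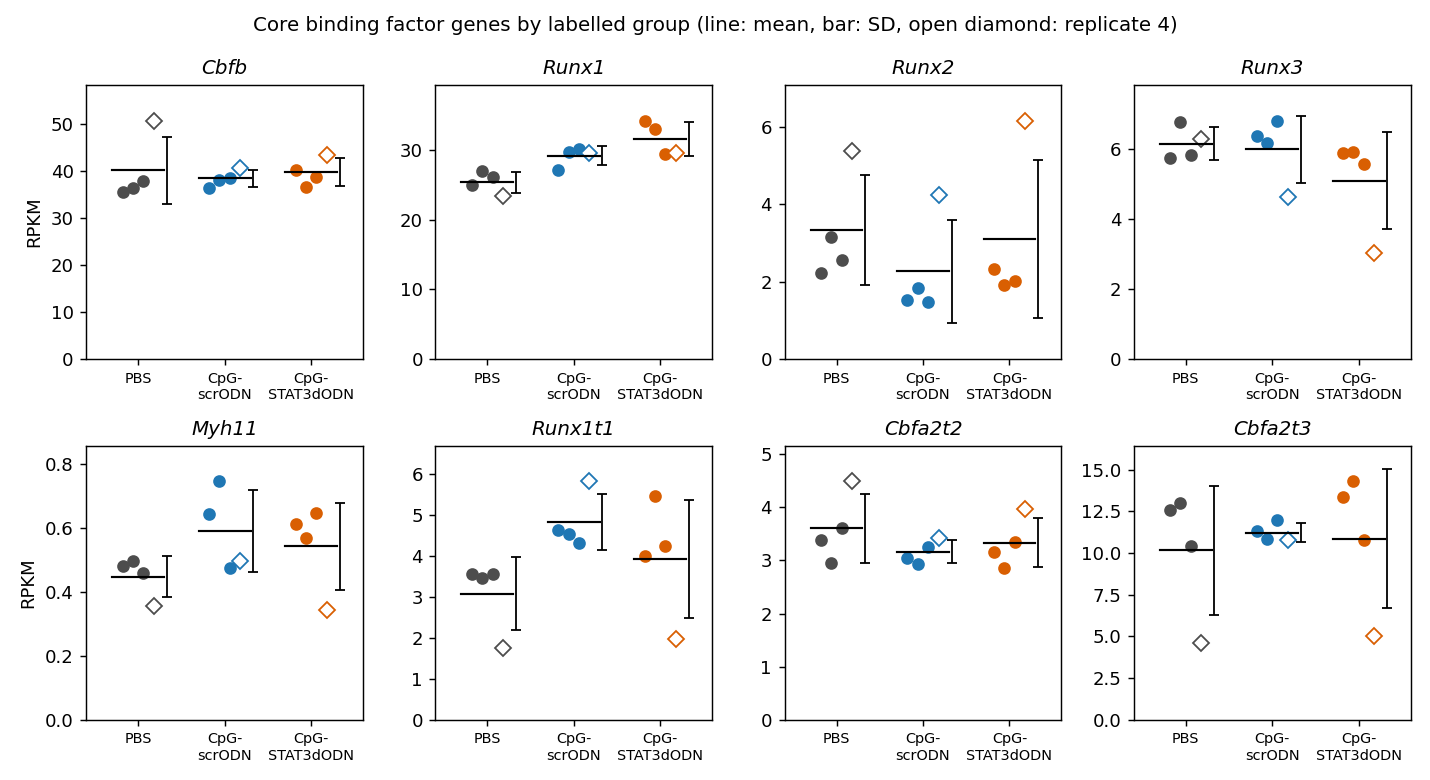
RPKM of the 8 genes in every library, by labelled group (n = 4 each), with the group mean as a line, the SD as a bar and replicate 4 as an open diamond. All 8 libraries labelled CpG-scrODN or CpG-STAT3dODN lay above the 4 labelled PBS for Runx1, while the open diamonds lay away from the other libraries for Cbfb, Runx2, Runx3, Runx1t1 and Cbfa2t3 in at least 1 group.

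Differences were tested for the 7 genes that passed the filter on low values (4 or more libraries reaching an RPKM of 1), in 1 limma model over the 10886 genes that passed. Runx1 was higher in every library labelled CpG-scrODN or CpG-STAT3dODN than in any labelled PBS, yet 0 of the 7 genes passed a Benjamini-Hochberg adjusted p of 0.05 over all genes in any of the 3 comparisons. For the libraries labelled CpG-scrODN against those labelled PBS, limma called 4.15% of all genes (452, of which 12 were higher) and 0 of the 7. For those labelled CpG-STAT3dODN against PBS it called 1.86% (202, of which 3 were higher) and 0 of the 7. For those labelled CpG-STAT3dODN against CpG-scrODN it called 0% of all genes, with 295 at an unadjusted p under 0.05. Before adjustment 2, 1 and 0 of the 7 genes had a limma p under 0.05 in these comparisons, beside 1702, 1023 and 295 of the 10886 genes. The median difference of the 7 genes was -0.041, -0.0024 and 0.047 on the log2(RPKM + 1) scale, beside -0.046, -0.011 and 0.032 for all genes. Libraries labelled PBS serve as the reference in both of the first comparisons, so those are not independent of each other.

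Cbfb, the beta subunit and the gene that is broken in inv(16), was the most abundant of the 8. The gene lies on chromosome 8 from 105170674 to 105217989 on the plus strand (GRCm38, which mm10 denotes, as for all gene positions here). Its level in replicates 1 to 4 was 35.5, 36.4, 37.9 and 50.6 RPKM in the libraries labelled PBS. In those labelled CpG-scrODN it was 36.3, 38.1, 38.4 and 40.6, and in those labelled CpG-STAT3dODN it was 40.2, 36.5, 38.7 and 43.4. The groups overlapped, and replicate 4 was the highest library of each group. Group means were 40.1 ± 7.09, 38.4 ± 1.79 and 39.7 ± 2.92 RPKM (SD, n = 4 each). The difference from the libraries labelled PBS on the log2(RPKM + 1) scale was -0.049 for those labelled CpG-scrODN, with a 95% interval of -0.28 to 0.19, and -0.0024 for those labelled CpG-STAT3dODN, with an interval of -0.24 to 0.23. The limma adjusted p was 0.846 in the first of these and 1.0 in the second. Without both low-Fos libraries the differences were 0.066 and 0.069, of the opposite sign.

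Runx1, the main alpha subunit of blood cells and the partner that the fusion protein holds, lies on chromosome 16 from 92601466 to 92826149 on the minus strand. It was at 25.0, 26.9, 26.0 and 23.4 RPKM in replicates 1 to 4 labelled PBS. It was at 27.1, 29.7, 30.2 and 29.6 RPKM in those labelled CpG-scrODN, and at 34.2, 33, 29.4 and 29.5 in those labelled CpG-STAT3dODN. All 8 of the latter libraries were above all 4 labelled PBS, an arrangement that 45 of the 10886 genes showed (0.413%; 3.83% and 0.818% for either CpG group alone), and the groups labelled CpG-scrODN and CpG-STAT3dODN overlapped each other. These shares count the higher direction only, and those of the opposite arrangement are not given here. Limma called far more genes lower than higher against PBS, 440 against 12 for CpG-scrODN and 199 against 3 for CpG-STAT3dODN. Group means were 25.3 ± 1.52, 29.2 ± 1.37 and 31.5 ± 2.44 RPKM (SD, n = 4 each). The mean of the CpG-scrODN group exceeded that of the PBS group by 15.1%, a log2 difference of 0.20 ± 0.076 (SE, limma adjusted p = 0.231). That of the CpG-STAT3dODN group exceeded it by 24.4%, a log2 difference of 0.30 ± 0.076 (SE, 95% interval 0.14 to 0.47, limma adjusted p = 0.0855). Between the CpG groups the difference was 0.11, with an interval of -0.060 to 0.27 and an adjusted p of 0.96 in limma. With no filter on low values the second difference passed (limma adjusted p = 0.0456), and with library quality weights it did as well, at 0.36 (limma adjusted p = 0.00533). Those weights ran from 0.112 to 10.6, the highest being that of replicate 1 labelled CpG-STAT3dODN. Their estimate stopped before it converged, and many more genes were called under them, as given below. In 20 of 22 alternatives the second difference did not pass, with a limma adjusted p of up to 0.313.

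Without both low-Fos libraries the Runx1 differences from PBS were 0.16 and 0.30 (limma adjusted p = 0.248 and 0.0684). Cell markers differed between the same groups. The summed B-cell markers were highest in the libraries labelled PBS, as given above. The median of Kit was 17.9 RPKM in the libraries labelled PBS, 30.0 in those labelled CpG-scrODN and 32.5 in those labelled CpG-STAT3dODN. The 10 leukaemic progenitor markers summed to 388 to 511 RPKM, 178 to 236 and 254 to 425 in the same groups. Their members split: the 5 granule-stage genes Mpo, Elane, Prtn3, Ctsg and Ms4a3 were called lower in the libraries labelled CpG-scrODN than in those labelled PBS. Kit and Cd34, a stem and progenitor cell antigen with medians of 10.5, 26.5 and 22.5 RPKM, had higher medians in both CpG groups and were not called. Flt3 had lower medians in both, at 1.43, 0.647 and 0.770 RPKM. The medians of Myb were 49.9, 53.0 and 56.4 and those of Cd33 were 2.40, 2.17 and 2.71. Flt3, Myb and Cd33 were not called either. The part of these cell markers in the Runx1 result was not tested.

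Runx2, the alpha subunit best known from bone formation and also expressed in early myeloid cells and plasmacytoid dendritic cells, lies on chromosome 17 from 44495987 to 44814797 on the minus strand. It was at 2.22, 3.15, 2.57 and 5.37 RPKM in replicates 1 to 4 labelled PBS. It was at 1.53, 1.84, 1.46 and 4.25 in those labelled CpG-scrODN, and at 2.32, 1.92, 2.02 and 6.15 in those labelled CpG-STAT3dODN. Replicate 4 was the highest library in every group, and the groups overlapped. The log2 difference between the libraries labelled CpG-scrODN and PBS was -0.43 ± 0.33 (SE, limma adjusted p = 0.568), and without both low-Fos libraries it was -0.23. Without the 3 libraries numbered 4, a choice made after seeing the data, it was -0.48 and passed (limma adjusted p = 0.0383). The plasmacytoid dendritic markers, 10 genes of which 5 had a mean of at least 1, summed to 138 to 196 RPKM under the label PBS, 65.2 to 84.9 under CpG-scrODN and 74.1 to 88.5 under CpG-STAT3dODN. The gene of that list with the widest gap between groups was Ly6d, which B-lineage cells express too, with medians of 69.0, 2.69 and 5.36 RPKM in the 3 groups. The medians of Bst2 were 61.9, 70.6 and 68.1 RPKM, and those of Siglech, low throughout, were 0.0863, 0.124 and 0.138. Lower medians in both CpG groups were found for Spib (14.6, 1.03 and 2.26), Tcf4 (1.83, 0.647 and 0.922) and Irf7 (5.90, 4.82 and 4.96). The part of these cells in the Runx2 values was not tested.

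Runx3, the alpha subunit known from T cells, natural killer cells and sensory neurons, lies on chromosome 4 from 135120652 to 135177990 on the plus strand. It was at 5.73, 6.74, 5.82 and 6.26 RPKM in replicates 1 to 4 labelled PBS. It was at 6.36, 6.17, 6.79 and 4.61 in those labelled CpG-scrODN, and at 5.87, 5.89, 5.57 and 3.01 in those labelled CpG-STAT3dODN. The groups overlapped, and replicate 4 was the lowest library of both CpG groups. The log2 differences were -0.041 for CpG-scrODN and -0.26 for CpG-STAT3dODN against PBS by label, and neither passed (limma adjusted p = 0.921 and 0.818). The first turned to 0.066 under quantile normalization, and the second shrank to -0.064 without both low-Fos libraries. The 10 T-cell markers, of which 3 had a mean of at least 1, summed to 15.7 to 54.9 RPKM in the libraries labelled PBS against 2.54 to 5.44 in the other 8. The largest part under the label PBS was Cd2, with medians of 11.2, 0.713 and 1.04 RPKM in the 3 groups. The medians of Cd3e were 1.38, 0.382 and 0.474. The part of these cells in the Runx3 values was not tested.

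The make-up of the Runx family was read from its summed RPKM. Runx1 made up 66.8% to 80.9% of summed Runx RPKM, with a median of 77.2%, Runx3 made up 7.79% to 18.3% and Runx2 made up 3.80% to 15.9%. The share of Runx1 was 72.9% ± 4.22 (SD, n = 4) in the libraries labelled PBS, with a range of 66.8% to 75.9%. It was 77.9% ± 0.862 in those labelled CpG-scrODN (77% to 78.8%) and 79.3% ± 2.11 in those labelled CpG-STAT3dODN (76.3% to 80.9%). Neither CpG group overlapped the libraries labelled PBS, and the mean shares exceeded that of PBS by 5.08 and 6.47 percentage points (two-sided exact permutation p = 0.0286 each, the smallest that 4 against 4 allows). Adjusted over the 9 ratio tests run on these genes, both p-values were 0.129. At that smallest p, both comparisons fail this adjustment unless several other ratio tests reach it too, so the adjusted values cannot decide. The difference between the CpG groups was 1.39 points (exact permutation p = 0.286). Without both low-Fos libraries the differences from PBS were 3.06 and 5.47 points.

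The balance of beta to alpha subunits showed no such separation. The log2 ratio of Cbfb to summed Runx RPKM was 0.19 ± 0.24 in the libraries labelled PBS, 0.036 ± 0.035 in those labelled CpG-scrODN and -0.0013 ± 0.15 in those labelled CpG-STAT3dODN (SD, n = 4 each). A ratio of 0 on this scale stands for equal RPKM. The exact permutation p was 0.229 for either CpG group against PBS and 0.657 between the CpG groups. Replicate 4 labelled PBS was the highest library, at 0.53, and without it the differences from PBS were -0.041 and -0.078 in place of -0.15 and -0.19.

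**Figure D2:**
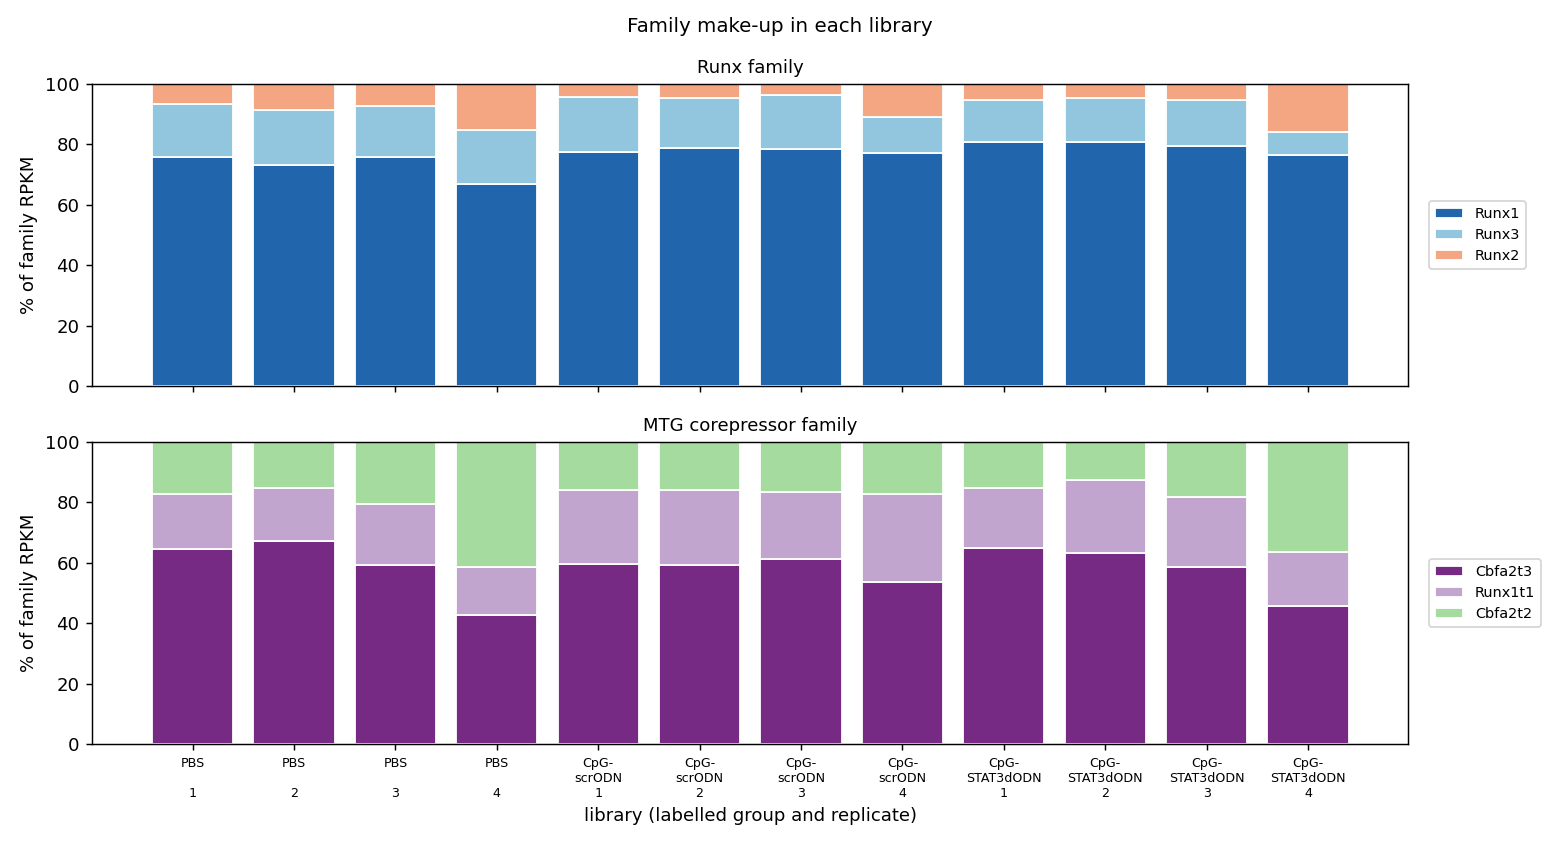
Share of each gene in the summed RPKM of its family, in percent, for each of the 12 libraries. Runx1 held 66.8% to 80.9% of the Runx family, and replicate 4 labelled PBS and CpG-STAT3dODN had the largest shares of Cbfa2t2 in the MTG family.

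Myh11, the smooth muscle myosin gene whose human counterpart is the fusion partner, was the lowest of the 8. It lies on chromosome 16 from 14194535 to 14291372 on the minus strand. It was at 0.480, 0.496, 0.460 and 0.354 RPKM in replicates 1 to 4 labelled PBS. It was at 0.644, 0.745, 0.475 and 0.497 in those labelled CpG-scrODN, and at 0.612, 0.570, 0.645 and 0.342 in those labelled CpG-STAT3dODN. The groups overlapped, 0 of 12 libraries reached an RPKM of 1, and the gene was removed by the filter. In a fit with no filter the log2 differences were 0.13, 0.088 and -0.045 in the 3 comparisons (limma adjusted p = 0.443, 0.852 and 0.974). Of 15 smooth muscle and stroma markers only Smtn, a cytoskeletal protein of smooth muscle, had a mean of at least 1, at 4.07 to 21.7 RPKM. Acta2, the smooth muscle actin, was at 0.0217 to 0.195 RPKM, below Myh11 in every group.

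The MTG corepressors have no DNA-binding activity of their own and recruit histone deacetylases to bound factors. Cbfa2t3, a partner of Tal1 and Gata factors in stem cells and the red cell and platelet lineages, was the most abundant of the 3 and lies on chromosome 8 from 122625141 to 122699109 on the minus strand. It was at 12.6, 13, 10.4 and 4.64 RPKM in replicates 1 to 4 labelled PBS. It was at 11.3, 10.9, 12 and 10.8 in those labelled CpG-scrODN, and at 13.3, 14.3, 10.8 and 5.0 in those labelled CpG-STAT3dODN. Both low-Fos libraries lay far below the other 10, whose range was 10.4 to 14.3. The log2 difference between the libraries labelled CpG-scrODN and PBS was 0.22 ± 0.32 (SE, limma adjusted p = 0.767), and without both low-Fos libraries it was -0.085.

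Runx1t1, the corepressor that is fused to RUNX1 in the other core binding factor leukaemia, lies on chromosome 4 from 13743436 to 13893649 on the plus strand. It was at 3.56, 3.46, 3.57 and 1.75 RPKM in replicates 1 to 4 labelled PBS. It was at 4.64, 4.53, 4.33 and 5.83 in those labelled CpG-scrODN, and at 4.01, 5.47, 4.25 and 1.98 in those labelled CpG-STAT3dODN. All 4 libraries labelled CpG-scrODN were above all 4 labelled PBS, as for Runx1, and 3.83% of all genes were arranged in that direction. The group labelled CpG-STAT3dODN overlapped both others. Means were 3.08 ± 0.892, 4.83 ± 0.675 and 3.93 ± 1.45 RPKM (SD, n = 4 each). The log2 difference between the libraries labelled CpG-scrODN and PBS was 0.54 ± 0.23 (SE, 95% interval 0.036 to 1.04, limma adjusted p = 0.279), and it was 0.36 without both low-Fos libraries (limma adjusted p = 0.0902). The mean was 56.8% higher in RPKM.

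Cbfa2t2, which is needed for the fate of germ and gut secretory cells in mice, lies on chromosome 2 from 154436481 to 154539356 on the plus strand. It was at 3.38, 2.94, 3.61 and 4.49 RPKM in replicates 1 to 4 labelled PBS. It was at 3.05, 2.93, 3.25 and 3.43 in those labelled CpG-scrODN, and at 3.17, 2.86, 3.35 and 3.97 in those labelled CpG-STAT3dODN. Replicate 4 was the highest of each group, and the groups overlapped. Its share of the summed MTG RPKM was 23.6% ± 12 in the libraries labelled PBS, 16.4% ± 0.519 in those labelled CpG-scrODN and 20.6% ± 10.7 in those labelled CpG-STAT3dODN (SD, n = 4 each), and over the libraries it ran from 12.6% to 41.3%. No pair of groups differed in that share beyond the spread (exact permutation p = 0.286, 0.571 and 0.743).

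**Figure D3:**
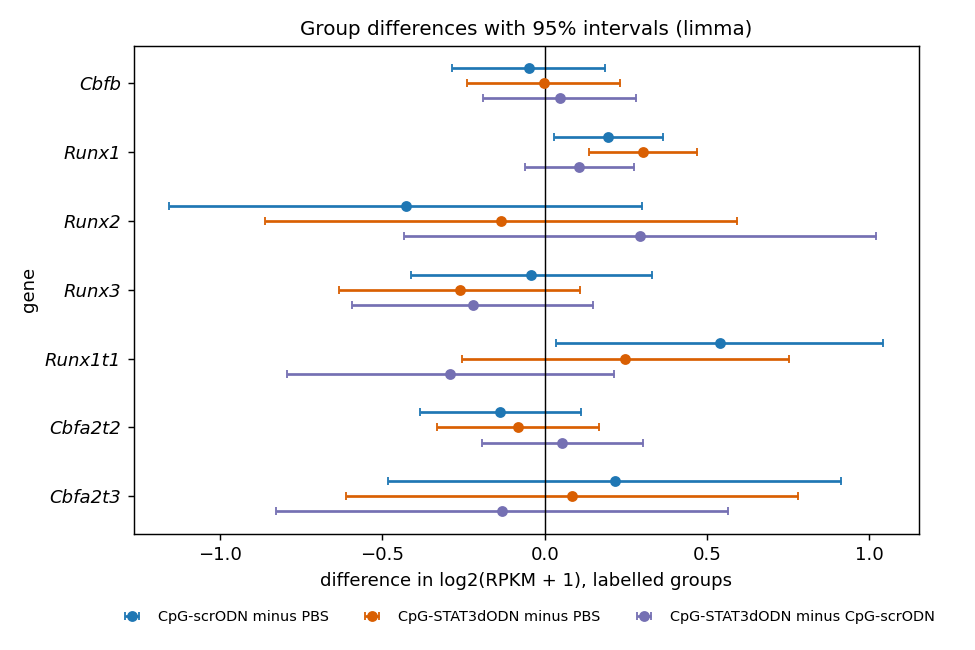
Differences between labelled groups on the log2(RPKM + 1) scale with 95% intervals from limma, for the 7 genes that passed the filter on low values. The intervals of Runx1 lie above 0 against PBS in both comparisons, and those of Cbfa2t3 and Runx2 are the widest.

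Most of these genes varied more within the labelled groups than between them. The SD of log2(RPKM + 1) over the 12 libraries was 0.51 for Runx2, 0.47 for Cbfa2t3, 0.40 for Runx1t1, 0.26 for Runx3 and 0.14 to 0.15 for Runx1, Cbfa2t2 and Cbfb. The labelled group held 73.1% of the sum of squares of Runx1, 33.7% of that of Runx1t1, and 3.94% and 2.88% of those of Cbfa2t3 and Cbfb. Without the low-Fos libraries the SD fell to 0.14 for Cbfa2t3 and to 0.063 for Cbfb. Cbfb, Runx2 and Cbfa2t2 were higher in both low-Fos libraries than in each of the other 10, and Runx1t1, Cbfa2t3 and Myh11 were lower in both. That is 6 of the 8 genes and 5 of the 7 tested, while 42.2% of all genes were so placed in either direction. Runx1 and Runx3 were not so placed. The 16 immediate-early genes summed to 386 and 399 RPKM in the low-Fos libraries and to 2333 to 5942 in the rest. Both low-Fos libraries also had the highest sum of B-cell markers in their group. It was 834 against 225 to 348 RPKM under the label PBS and 134 against 30.7 to 56.7 under CpG-STAT3dODN. The part of library state or of cell make-up in the values of single genes was not tested.

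The genes most like each of these over the 12 libraries were named by their Pearson correlation of log2(RPKM + 1), which is given as a description, since the libraries share groups and the 2 that stand apart. For Runx1 they were Hsd3b7, a bile acid enzyme, with r = 0.892, Obfc1, a telomere capping factor, with 0.878, and Schip1 with 0.866. Without the low-Fos libraries these were 0.898, 0.833 and 0.837. For Runx2 they were Anxa2, a membrane-binding annexin, with 0.970, Adcy7, an adenylate cyclase, with 0.955, and Arl2bp with 0.946. For Cbfa2t3 they were Egfl8 with 0.986, Gpt, an alanine aminotransferase, with 0.978, and Eml3 with 0.977, and for Runx1t1 they were Cnst with 0.985, Fer, a tyrosine kinase, with 0.979, and Taok3 with 0.976. For Cbfb they were Dhx32 with 0.950, Cggbp1 with 0.938 and Pde3b with 0.928, which fell to 0.728, 0.650 and 0.673 without the low-Fos libraries. For Runx3 they were Psmb9, an immunoproteasome subunit, with 0.917, Nup214, a nuclear pore protein, with 0.897, and Gbf1 with 0.891. For Cbfa2t2 they were Cenpc1, a centromere protein, with 0.972, Fbxo33 with 0.954 and Rad18, a ubiquitin ligase of the DNA damage response, with 0.951. Without the low-Fos libraries the values for Runx3 fell to 0.746, 0.803 and 0.634, and those for Cbfa2t3 to 0.898, 0.746 and 0.663. Those for Runx2, Runx1t1 and Cbfa2t2 were then 0.823 to 0.933.

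The partners and targets of the core binding factor were then read from 4 lists. Of 24 cofactors, which include histone deacetylases, acetyltransferases and Tle corepressors, 23 were tested. Chd7, a chromatin remodeller, was the 1 gene called in each of the first 2 comparisons, beside 4.15% and 1.86% of all genes. It reached an RPKM of 1 in 4 libraries, all labelled PBS, so it entered the test through the group in which it was high. It was at 0.438 ± 0.128 RPKM in the libraries labelled CpG-scrODN against 1.58 ± 0.520 in those labelled PBS (SD, n = 4 each), a log2 difference of -0.83 ± 0.14 (SE, limma adjusted p = 0.00574). In those labelled CpG-STAT3dODN it was at 0.625 RPKM, a log2 difference of -0.66 from PBS (limma adjusted p = 0.0412), but that call was lost in 18 of 21 alternatives. The list medians were -0.11, -0.079 and 0.055 in the 3 comparisons. Of 20 transcription factors that work with Runx1 in stem cells, all 20 were tested and 1 was called for CpG-scrODN against PBS, beside the same 4.15%. Gfi1, a zinc finger repressor, was at 0.552 RPKM in the libraries labelled CpG-scrODN against 1.93 in those labelled PBS (log2 difference -0.91 ± 0.19, SE, limma adjusted p = 0.0150). That call was lost in 2 of 21 alternatives, among them that without replicate 3 labelled CpG-scrODN (-0.84, limma adjusted p = 0.0625). Gfi1 reached an RPKM of 1 in the 4 libraries labelled PBS and in 1 other, so it too entered the test through the group in which it was high. None passed in the other comparisons, and the medians were -0.089, -0.024 and 0.043.

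Of 36 genes known as targets of the core binding factor, 28 were tested. In the libraries labelled CpG-scrODN against those labelled PBS, 11 were lower and 1 was higher, with a list median of -0.56, where 4.04% of all genes were called lower, 0.11% were called higher and the median of all genes was -0.046. Among the 4 with the largest difference were Blk, a B-cell kinase, at 0.638 against 10.05 RPKM, Ctsg, the granule protease cathepsin G, at 11.4 against 49.95, and Mpo, the myeloperoxidase of granules, at 23.6 against 99.96 RPKM. Their log2 differences were -2.66, -2.09 and -2.08 (limma adjusted p = 0.000549, 0.00326 and 0.00139). Other called genes, lower as well, were Prtn3, Elane, Ebf1, Cebpe, Itgal, Cebpd and Gfi1, of which Cebpe lost its call in 3 of 22 alternatives, each without 1 library. Of the 28 targets, 3 reached an RPKM of 1 in fewer than 4 of the 8 libraries labelled CpG-scrODN or CpG-STAT3dODN and so entered through the libraries labelled PBS, among them Gfi1 and Ebf1. Among the other 25 targets 9 were called lower and 1 higher. The gene that was higher was Cdkn1a, the cell cycle inhibitor p21, at 51.2 against 38.6 RPKM (log2 difference 0.41, limma adjusted p = 0.0427). That call was lost in 14 of 22 alternatives, among them those that left out any 1 of the libraries labelled CpG-scrODN.

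In the libraries labelled CpG-STAT3dODN against those labelled PBS, 5 of the 28 targets were lower and 0 were higher, with a list median of -0.35, where 1.83% of all genes were called lower and 0.0276% higher. Among them were Blk at -2.16, Ebf1, a B-lineage factor, at -1.27, Itgal, an integrin chain of leukocytes, at -0.92 and Cebpd, a C/EBP factor, at -0.67 (log2 differences, limma adjusted p = 0.00407, 0.0400, 0.0102 and 0.0354). Blk and Itgal passed in all 22 alternatives, while Ebf1 and Cebpd lost their calls in 12 of 21 and 16 of 21. Among the 25 targets that did not enter through the libraries labelled PBS, 4 were lower. Between the CpG groups 0 of the 28 passed, with a median of 0.27.

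Of the called targets, 3 are also B-cell markers, Blk and Ebf1 among them, and the summed B-cell markers were highest in the libraries labelled PBS, in each library above every other. Without these 3 genes, 25 targets were tested, with medians of -0.46, -0.0054 and 0.24. Of these, 9, 2 and 0 were called, beside 4.15%, 1.86% and 0% of all genes. The 9 include Gfi1, which entered through the libraries labelled PBS, and Cdkn1a, which was higher. Mpo, Elane, Prtn3 and Ctsg stand among the 10 leukaemic progenitor markers as well. The part of cell make-up in these target differences was not tested.

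Of 16 genes reported to go with the Cbfb-MYH11 fusion, such as Kit, Gata2, Mn1 and Il1rl1, 11 were tested. Of these, 0 passed in any comparison, beside 4.15%, 1.86% and 0% of all genes. The list medians were -0.012, 0.23 and 0.12. Over the 4 lists together 76 genes were tested, of which 13, 6 and 0 passed in the 3 comparisons, beside the same shares of all genes. Chd7 and Ebf1, among the 13 and the 6, and Gfi1, among the 13, entered the test through the libraries labelled PBS.

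**Figure D4:**
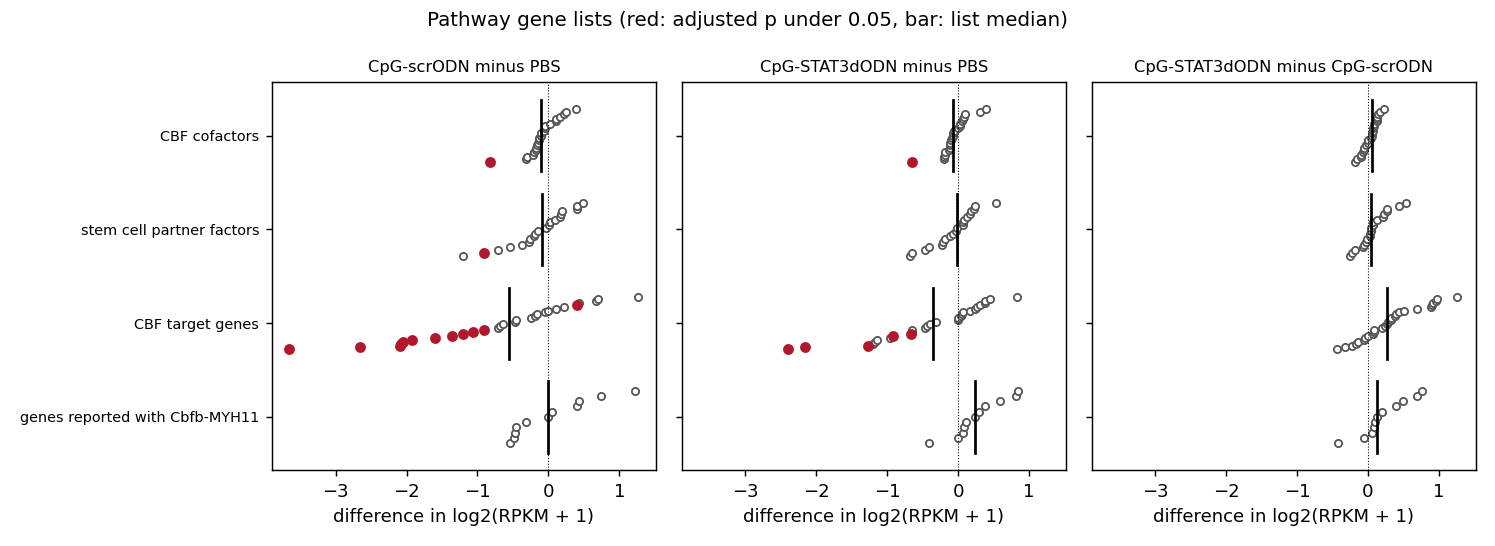
Differences on the log2(RPKM + 1) scale for the tested genes of the 4 lists, in the 3 comparisons of labelled groups, with called genes in red and the list median as a bar. Of the 28 target genes, 12 were called in the first panel and 5 in the second, and 0 genes of any list in the third. Of all genes, 4.15%, 1.86% and 0% were called.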

How the data were processed

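The authors deposited 1 table per library of RPKM values, per the file headers, with 24310 features each. The submitters' processing notes name mm10, TopHat 1.3.1 and Partek 6.12.0713 without giving their roles. Groups were taken from the sample labels, with 4 libraries in each of 3 groups, although the header of every file names another group. Since no source says that a library is 1 mouse, a p-value here reflects the spread between libraries, part of which may be technical. The symbols of 27 features read as dates and were not named.

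The 8 genes, the gene lists and the tests were chosen with earlier results of these data known. The 10886 genes that reached an RPKM of 1 in 4 or more libraries were tested on the log2(RPKM + 1) scale, on which changes of low genes come out too small. One limma 3.58.1 model (R 4.3.3) held the 3 labelled groups, with moderated variances and an intensity trend, and Benjamini-Hochberg adjustment over all genes within each comparison. Differences, SE and 95% intervals come from that model, and it was tested on simulated data. For the 9 ratio tests, two-sided exact permutation tests (scipy 1.17.1) compared 4 against 4 libraries, whose smallest p is 0.0286. No set test was run.

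Depth was estimated from the RPKM that 1 read is worth in 867 to 979 genes with a single transcript. Of their low values, 65.9% to 69.9% were whole reads within 0.05, too few to recover counts, so no count test was run. No 2 libraries held identical values.

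Named genes were all 8 members, up to 4 called genes with the largest difference per list and comparison, the 3 genes with the highest correlation to each tested member, Fos, and the marker of a list with the highest mean. Of other list genes, those that completed a count, Kit, which was the marker of the enrichment, Acta2, and the markers that show how a marker sum was made up were named after their values were seen. One called target gene counted in the list totals is not reported here by name. Alternatives changed the pseudocount to 0.1, the filter to none or to an RPKM of 5, the scaling, the groups fitted, a replicate block, library weights and the libraries used.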

Additional observations from a re-analysis of the deposited data

Results flagged for a closer look

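In 5 of 33 groups of 4 libraries tested, 1 library lay apart from its group by more than Dixon's criterion allows. Chance gives about 1 in 20 for independent groups, but these groups share the same 12 libraries. All 5 outlying libraries were replicate 4 of their group. The share of all genes with such a library was not counted. Both low-Fos libraries lay outside the range of the other 10 for 42.2% of all genes, so such values are not particular to these genes. Cbfb was at 50.6 RPKM in replicate 4 labelled PBS, against 35.5 to 37.9 in the others of its group. Runx2 was at 4.25 RPKM in replicate 4 labelled CpG-scrODN, against 1.46 to 1.84, and at 6.15 RPKM in replicate 4 labelled CpG-STAT3dODN, against 1.92 to 2.32. Runx3 was at 3.01 RPKM in replicate 4 labelled CpG-STAT3dODN, against 5.57 to 5.89. Runx1t1 was at 1.75 RPKM in replicate 4 labelled PBS, against 3.46 to 3.57. Replicates 4 labelled PBS and CpG-STAT3dODN are the low-Fos libraries, while replicate 4 labelled CpG-scrODN had Fos within the range of the other libraries.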

How the results depend on the processing

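Over 22 alternatives at most, 411 of 453 results for single core binding factor genes kept their direction and their side of the threshold, 38 changed direction and 4 newly passed. Those that changed direction are log2 differences. For CpG-scrODN against PBS, Runx3 became 0.066 with quantile normalization, 0.0047 with size factors, 0.043 with library weights and 0.070 without the libraries numbered 4. Cbfb became 0.0030 with size factors, 0.057 with weights, 0.066 without the low-Fos libraries and 0.038 without those numbered 4. Cbfa2t2 became 0.018 with quantile normalization, and Cbfa2t3 became -0.079 with weights, -0.085 without low Fos and -0.067 without those numbered 4. For CpG-STAT3dODN against PBS, Cbfb became 0.018 with size factors, 0.12 with weights, 0.069 without low Fos and 0.069 without those numbered 4, and Cbfa2t2 became 0.013 with quantile normalization. For CpG-STAT3dODN against CpG-scrODN, Cbfa2t3 became 0.17 with weights, 0.17 without low Fos and 0.15 without those numbered 4. Cbfa2t2 became -0.0047 with quantile normalization and -0.014 without low Fos, Runx2 became -0.010 without low Fos, and Runx1t1 became 0.011 without those numbered 4. The share of Cbfa2t2 between the CpG groups became -1.02 points without low Fos. The cause of these changes was not tested.

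With 1 library left out at a time, these differences took both signs. For CpG-scrODN against PBS, Cbfb ran from -0.10 to 0.066, Runx3 from -0.097 to 0.061 and Cbfa2t3 from -0.085 to 0.35. For CpG-STAT3dODN against PBS, Cbfb ran from -0.055 to 0.11, Runx2 from -0.44 to 0.068, Cbfa2t2 from -0.15 to 0.0057 and Cbfa2t3 from -0.22 to 0.38, and the share of Cbfa2t2 ran from -8.13 to 2.98 points. Between the CpG groups, Runx2 ran from -0.010 to 0.55, Cbfa2t2 from -0.014 to 0.11 and Cbfa2t3 from -0.28 to 0.17, the share of Cbfa2t2 from -1.02 to 6.86 points and the log2 ratio of Cbfb to Runx from -0.093 to 0.017. The genes called ran from 279 (without replicate 3 labelled CpG-scrODN) to 560 for CpG-scrODN against PBS. For CpG-STAT3dODN against PBS they ran from 121 (without replicate 2 labelled CpG-STAT3dODN; 131 without replicate 1 labelled PBS) to 218, and the list genes called from 2 to 7.

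The results that newly passed were Runx1 for CpG-STAT3dODN against PBS, at 0.30 with no filter and 0.36 with weights (limma adjusted p = 0.0456 and 0.00533), Runx1 between the CpG groups at 0.17 with weights (limma adjusted p = 0.0460), and Runx2 for CpG-scrODN against PBS at -0.48 without the libraries numbered 4 (limma adjusted p = 0.0383), so that 1 gene in place of 0 was called in each of these. Leaving out the libraries numbered 4 was chosen after seeing the data. The weights ran from 0.112 to 10.6, and their estimate stopped before it converged.

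The number of all genes called for CpG-scrODN against PBS was 163 with a floor of 5, 1812 with weights and 686 without low Fos, and with quantile normalization it was 393, of which 19.1% were higher in place of 12 of 452. For CpG-STAT3dODN against PBS it was 76 with the floor, 78 with the compared groups fitted alone, 1248 with weights, 337 without low Fos and 392 without those numbered 4. Between the CpG groups it was 1 with the compared groups alone and 607 with weights. List genes called were 8 with the floor and 29 with weights for CpG-scrODN against PBS. For CpG-STAT3dODN against PBS they were 3 with no filter, 2 with the floor, 3 with quantile normalization, 2 with the compared groups alone and 22 with weights, and between the CpG groups 14 with weights.

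With the replicate number as a block, 523, 213 and 0 genes were called in the 3 comparisons, and none of the 7 tested core binding factor genes. Runx2 for CpG-scrODN against PBS stood at -0.43 (limma adjusted p = 0.0812 under the block), and Runx1 at 0.20 and 0.30 against PBS (limma adjusted p = 0.222 and 0.126). Deviations of libraries with the same number correlated at -0.341 to 0.817 across genes, above 0.1 in 5 of 12 pairs. The 3 pairs numbered 4 were among them, at 0.193, 0.817 and 0.151. The best partner in another group had the same number in 7 of 24 cases, so the numbers as a whole are not shown to pair the libraries. Myh11 rests on fewer than 1 RPKM in every library.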
